A study of Homo sapiens with 8 samples.

Results

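The *NRF2* antioxidant genes were followed here in RNA-seq of CTCF-AID2 SEM cells, as 10 genes taken by symbol: *NFE2L2*, *KEAP1*, *GCLC*, *GCLM*, *TXN*, *TXNRD1*, *PRDX1*, *SRXN1*, *NQO1*, and *HMOX1*. Each symbol matched 1 row among the 60754 genes and spike-in sequences of the expression table. SEM is a human B-cell acute lymphoblastic leukemia (B-ALL) line with a rearranged *KMT2A* gene. Both clones were made with the miniAID degron and the mClover3 fluorophore joined to both alleles of the endogenous *CTCF* gene. In all 4 groups a lentivirus with the MND promoter supplied the mutant adaptor OsTIR1(F74G) and Zeocin resistance. The auxin analog 5-Ph-IAA joins this mutant OsTIR1 to the miniAID tag, after which the tagged protein is degraded. The clones C17.2 and C3.2 each grew from 1 cell, so each stands for 1 clone of the line. Parental cells of each clone were untreated. Resistant cells had been kept until day 36 in 5-Ph-IAA at 1 μM with Zeocin at 100 μg/ml, and both drugs were then withdrawn for 48 h. After drug withdrawal, the resistant cells of C17.2 held a truncated CTCF without the tag beside the tagged protein, and those of C3.2 carried full-length CTCF with a mutated tag. Each group had 2 libraries, 8 in all, and nothing in the labels says whether they came from separate cultures, so the tests measure the spread between these libraries, which may be technical.

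*NFE2L2* encodes NRF2, a transcription factor that KEAP1 binds and hands to a CUL3 ubiquitin ligase for degradation in unstressed cells. When oxidants or electrophiles modify KEAP1, NRF2 is spared, pairs with a small MAF protein and binds antioxidant response elements beside genes for glutathione synthesis, the thioredoxin system, quinone reduction, and heme breakdown. NRF2 is thus set largely at the level of its protein, which RNA-seq does not measure. Leukemic cells, like other dividing cells, rely on glutathione and thioredoxin to keep peroxides low and to reduce ribonucleotides for DNA synthesis.

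To show the letters that such elements share, the kilobase before each RefSeq transcription start was searched on both strands of GRCh38 for the core TGACNNNGC, which reads GCNNNGTCA on the other strand. The set of RefSeq promoters used here had an entry for 8 of the 10 genes (all but *HMOX1* and *PRDX1*, which were not searched). Of these 8, 6 held the core. Among all 27305 genes of this set, 35.51% held it, so a match in a kilobase is common. Each stretch below is printed 5′ to 3′ on the strand of its gene with the core in capitals, because these are the genes whose RNA is described next.
*NQO1*, chr16:69727001-69727021, minus strand, 455 to 447 bases before the start: tcacagTGACTCAGCagaatc
*GCLM*, chr1:93909450-93909470, minus strand, 34 to 26 bases before the start: atttctGCTTAGTCAttgtct
*KEAP1*, chr19:10502788-10502808, minus strand, 31 to 23 bases before a downstream start: ggctctGCTTAGTCAtggtga
*KEAP1*, chr19:10502811-10502831, minus strand, 54 to 46 bases before a downstream start: ttattgTGACACGGCgggcgc
*TXNRD1*, chr12:104215674-104215694, plus strand, 99 to 91 bases before the upstream start: gggctaTGACTTCGCtgttgt
*TXNRD1*, chr12:104286924-104286944, plus strand, 102 to 94 bases before a downstream start: atttctGCTTTGTCAttctga
*TXN*, chr9:110257074-110257094, minus strand, 581 to 573 bases before the start: taaaccGCTGTGTCAagctgg
*GCLC*, chr6:53545957-53545977, minus strand, 870 to 862 bases before the start: gtcattGCTCTGTCAacacat
*GCLM* and *KEAP1* shared the 9 core letters GCTTAGTCA within 34 bases of a start. Both *KEAP1* matches, the *GCLC* match, and the downstream *TXNRD1* match lie within the gene as Gencode places it. No core lay in the searched kilobases of *NFE2L2* and *SRXN1*. A match is a description of letters and not a bound site.

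The deposited values are TPM (transcripts scaled to a fixed library total), which are corrected for gene length and can be compared between genes. The fixed total leaves the depth of sequencing unknown. Averaged over the 8 libraries, *PRDX1* was the highest of the 10 genes at 534 TPM (lowest 409.7, highest 628). *TXN* followed at 78.4 TPM and *TXNRD1* at 50.7 TPM, with ranges that overlapped between libraries. *KEAP1* at 26.6, *NFE2L2* at 25.9, and *GCLC* at 21.3 TPM also overlapped one another, with all of their values between 18.0 and 32.7 TPM. *NQO1* at 8.46 TPM lay lower and *GCLM* at 3.48 TPM lower still, and the lowest *NQO1* library (4.40 TPM) was just above the highest *GCLM* library (4.28 TPM). *HMOX1* and *SRXN1* were near or at 0 TPM in every library.

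**Figure D1:**
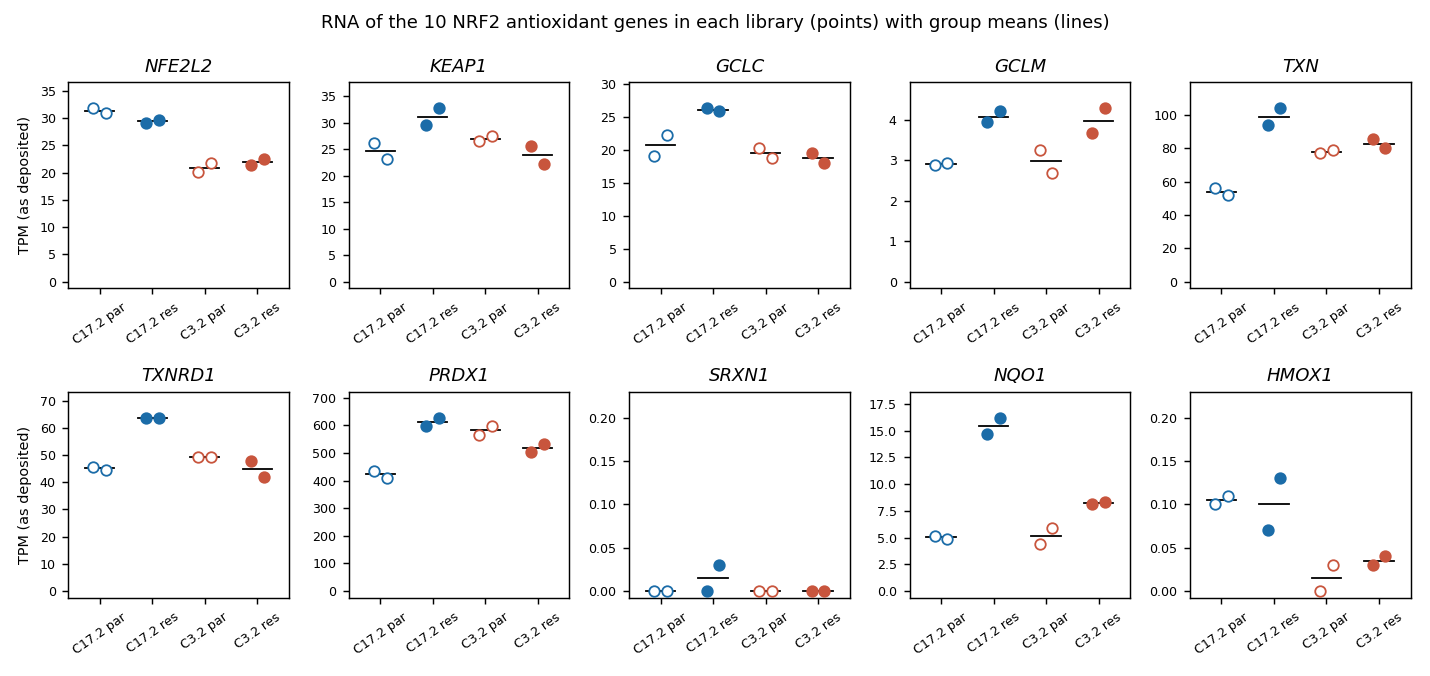
RNA of the 10 genes in TPM as deposited, 1 panel per gene, each with its own linear axis from 0. Points are the 8 libraries (par, parental, open; res, resistant, filled; blue, C17.2; red, C3.2) and lines are group means, n = 2. *SRXN1* and *HMOX1* stay at or below 0.13 TPM. For all other genes the 2 resistant libraries of C17.2 lie apart from the 2 parental ones, below them for *NFE2L2* and above them for the rest. In C3.2 the groups of these other genes overlap for *NFE2L2* and *GCLC* only. The share of all genes whose groups lie apart is not given here.

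For the comparison of resistant with parental cells, a factor from trimmed log2 ratios was applied to each library, because protein-coding genes made up only 36.0% to 43.3% of its TPM. Log2(scaled TPM + 1) was then tested with limma over the 15614 genes that reached 1 TPM in at least 1 library, with an adjusted p under 0.05 as the threshold. Fold changes below are on this log2 scale, which understates the changes of genes with low TPM. *HMOX1* and *SRXN1* did not reach 1 TPM and were not tested, so 8 of the 10 genes were. RNA of the tagged gene *CTCF* was higher in resistant cells by 0.44 in C17.2 (adjusted p = 0.00079, limma) and by 0.34 in C3.2 (adjusted p = 0.0068). Of 8 B-lineage markers, 7 reached 1 TPM in all libraries (*RAG1* stayed at or below 0.31 TPM), whereas *CD3D*, *COL3A1*, and *EPCAM* were at 0 in all 8. Of the 5 T and NK cell markers, *TRAC* (38.6 to 49.2 TPM) and *NKG7* (7.00 to 14.2 TPM) were above 1 TPM in every library.

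In C17.2, RNA of 4 of the 8 tested genes rose in resistant cells and that of 1 fell, whereas in C3.2 only *NQO1* passed the test. The 4 that rose in C17.2 were *NQO1* (2.75-fold in scaled TPM), *TXN* (1.64-fold), *PRDX1* (1.3-fold), and *TXNRD1* (1.26-fold), and the 1 that fell was *NFE2L2* itself. Among all 15614 genes tested, 27.3% passed the threshold in C17.2 in either direction and 13.4% passed it as higher, against 5 and 4 of the 8 genes. In C3.2 these shares were 11.4% and 4.46%, against 1 of the 8 genes in both, so that count stands near the background. The median log2 fold change of the 8 genes was 0.29 in C17.2 and -0.05 in C3.2, and over all genes it was 0 in both. The test of the difference between clones, given with each gene, was passed by 5 of the 8 genes against 9.90% of all genes. The genes were chosen with earlier results of these data known, so these counts are a description.

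**Figure D2:**
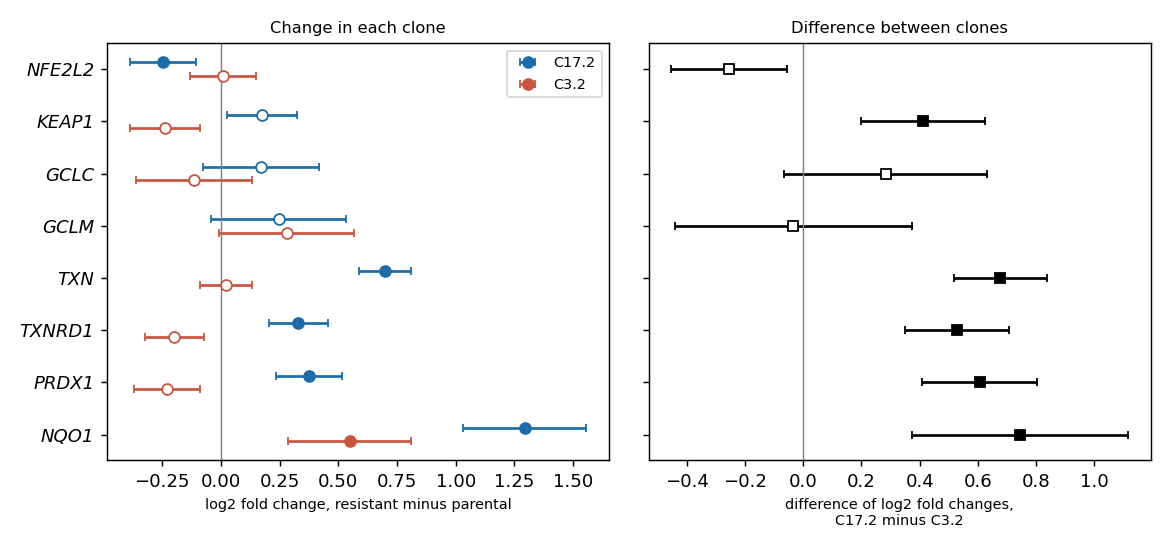
Left, log2 fold change of each tested gene in resistant against parental cells (blue, C17.2; red, C3.2); right, the change in C17.2 minus that in C3.2. Bars are 95% confidence intervals from limma with 2 libraries per group, and filled symbols mark an adjusted p under 0.05. All genes but *NFE2L2* lie to the right of 0 in C17.2, where *KEAP1*, *GCLC*, and *GCLM* are open. Only *NQO1* is filled in C3.2.

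Among the regulators, *NFE2L2* (ENSG00000116044.16, chr2:177218667-177392756, minus strand) stood at 31.8 and 30.9 TPM in parental C17.2 libraries, against 29.2 and 29.6 TPM in resistant ones. Both resistant libraries lay below both parental ones, and the scaled level fell by 0.25 on the log2 scale (SE 0.058, adjusted p = 0.024, limma). The call needs the scaling, since on TPM as deposited the change was -0.09 (adjusted p = 0.295), and leaving out any 1 of the 4 libraries of C17.2 gave an adjusted p of 0.0774 to 0.116. In C3.2 the values were 20.1 and 21.7 TPM in parental cells and 21.5 and 22.5 TPM in resistant cells, which overlapped (log2 fold change 0.01, 95% confidence interval -0.13 to 0.15, adjusted p = 0.955). The difference between clones was -0.25 (adjusted p = 0.111). *NFE2L2* overlaps *HNRNPA3* (149 to 211 TPM) and *AGPS* (17.1 to 22.7 TPM) on the opposite strand, and whether reads were counted by strand is not stated, so reads shared with these genes cannot be told apart.

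*KEAP1* (ENSG00000079999.14, chr19:10486125-10503558, minus strand), whose protein holds NRF2 for degradation, had 26.1 and 23.0 TPM in parental cells of C17.2 and 29.6 and 32.7 TPM in resistant cells. C3.2 had 26.5 and 27.5 TPM in parental cells and 25.5 and 22.3 TPM in resistant cells. The groups did not overlap in either clone and lay in opposite orders, and the share of all genes whose groups lie apart is not given here. Neither change passed the threshold (0.17 with adjusted p = 0.0855 in C17.2, -0.24 with adjusted p = 0.061 in C3.2, limma). The difference between the clones did pass, at 0.41 (95% confidence interval 0.20 to 0.62, adjusted p = 0.036). It passed in 5 of 15 alternatives, with adjusted p of 0.0301 to 0.121 when 1 library was left out.

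Both subunits of glutamate-cysteine ligase, which makes the first bond of glutathione, missed the threshold in both clones. The catalytic subunit gene *GCLC* (ENSG00000001084.13, chr6:53497341-53616970, minus strand) had 19.1 and 22.2 TPM in parental and 26.3 and 25.8 TPM in resistant cells of C17.2, or 0.17 on the log2 scale after scaling (95% confidence interval -0.08 to 0.42, adjusted p = 0.273, limma). C3.2 had 20.3 and 18.7 TPM in parental and 19.6 and 18.0 TPM in resistant cells, which overlapped (log2 fold change -0.11, adjusted p = 0.515). The modifier subunit gene *GCLM* (ENSG00000023909.10, chr1:93885199-93909456, minus strand), which holds a core 34 to 26 bases before its start, had 2.88 and 2.94 TPM in parental and 3.93 and 4.22 TPM in resistant cells of C17.2. C3.2 had 3.26 and 2.68 TPM in parental and 3.67 and 4.28 TPM in resistant cells. Resistant libraries were above parental ones in both clones, by 0.25 (adjusted p = 0.18, limma) and 0.28 (adjusted p = 0.19), and the interval of the difference between clones ran from -0.44 to 0.37.

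All 3 tested genes of the thioredoxin system among the 10 rose in C17.2 and none passed the threshold in C3.2. *TXN* (ENSG00000136810.13, chr9:110243810-110256507, minus strand) encodes thioredoxin, the small protein that reduces disulfides in other proteins. In C17.2 it had 56.1 and 51.9 TPM in parental cells and 93.7 and 104 TPM in resistant cells, a log2 fold change of 0.70 (SE 0.046, adjusted p = 0.00022, limma). C3.2 had 77.1 and 78.7 TPM in parental cells and 85.5 and 80.2 TPM in resistant cells, and its change was 0.02 (95% interval -0.09 to 0.13, adjusted p = 0.815). The gap between clones was 0.68 (95% confidence interval 0.52 to 0.84, adjusted p = 0.0031), and it passed the threshold in all 15 alternatives run. The 7 listed *TXN* pseudogenes summed to at most 0.80 TPM, or 1.04% of *TXN* itself.

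*TXNRD1* (ENSG00000198431.16, chr12:104215779-104350307, plus strand) encodes the cytosolic reductase that recharges thioredoxin with electrons from NADPH. Its RNA rose in C17.2 from 45.7 and 44.4 TPM to 63.7 and 63.6 TPM (log2 fold change 0.33, SE 0.052, adjusted p = 0.0055, limma). Its level in C3.2 was 49.2 and 49.1 TPM in parental and 47.7 and 41.9 TPM in resistant cells (log2 fold change -0.20, adjusted p = 0.061). The changes differed between clones by 0.53 (adjusted p = 0.010), with adjusted p = 0.0534 without parental replicate 1 of C17.2 and 0.0537 without that of C3.2. The processed pseudogene *RPL18AP3* lies within *TXNRD1* on the same strand at 212 to 312 TPM, and its log2 fold change in C17.2 was -0.42 (adjusted p = 0.077).

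*PRDX1* (ENSG00000117450.14, chr1:45510914-45542732, minus strand) encodes a peroxiredoxin, which breaks down hydrogen peroxide with electrons from thioredoxin. In C17.2 it rose from 436 and 409.7 TPM to 599 and 628 TPM (log2 fold change 0.38, SE 0.058, adjusted p = 0.0051, limma). In C3.2 the order was the opposite, with 567 and 596 TPM in parental and 505 and 534 TPM in resistant cells, and the change of -0.23 missed the threshold (adjusted p = 0.0545). The difference between clones was 0.61 (adjusted p = 0.0090), with adjusted p = 0.0525 and 0.0524 without parental replicate 1 or 2 of C17.2. When only genes with 1 TPM in all 8 libraries were tested, *PRDX1*, *TXNRD1*, and *KEAP1* passed as lower in C3.2 (adjusted p = 0.0397, 0.0482, and 0.0478). *SRXN1* (ENSG00000271303.1, chr20:646615-653200, minus strand), whose product restores overoxidized peroxiredoxin, was listed at 0 in all libraries but 1 resistant library of C17.2, at 0.03 TPM. An overlapping protein-coding entry on the same strand was also listed at 0, so *SRXN1* RNA was at or near 0 in this counting.

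*NQO1* (ENSG00000181019.13, chr16:69706996-69726668, minus strand), which encodes a quinone reductase and is a standard readout of NRF2 activity, was the single gene of the 10 past the threshold in both clones. In C17.2 it had 5.18 and 4.87 TPM in parental cells and 14.7 and 16.2 TPM in resistant cells, a change of 1.29 on the log2 scale (95% confidence interval 1.03 to 1.56, adjusted p = 0.00053, limma). In C3.2 it had 4.40 and 5.89 TPM in parental cells and 8.13 and 8.36 TPM in resistant cells, a change of 0.55 (95% confidence interval 0.29 to 0.81, adjusted p = 0.027) and a ratio of 1.54 in scaled TPM. Resistant libraries stood above parental ones in both clones. The rise in C3.2 was nearer to the limit, with an adjusted p of 0.104 when the 4 libraries of that clone were fitted alone and up to 0.116 when 1 library was left out (without resistant replicate 2 of C3.2). The rise was larger in C17.2 by 0.74 (95% confidence interval 0.37 to 1.12, adjusted p = 0.033), and this difference passed in 7 of 15 alternatives, missing without any 1 library of C17.2 (adjusted p = 0.0804 to 0.116). *HMOX1* (ENSG00000100292.17, chr22:35380361-35394214, plus strand), which encodes the inducible heme oxygenase, stayed at or below 0.13 TPM in all 8 libraries.

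Measured against the other clone, *TXN* and *PRDX1* were lower in C17.2 in parental cells and about level in resistant cells. Scaled *TXN* in C17.2 was 0.618 times that in C3.2 in parental cells and 0.995 times that in resistant cells. For *PRDX1* the ratio was 0.647 in parental and 0.985 in resistant cells. *TXNRD1* went from 0.817 to 1.19 and *KEAP1* from 0.810 to 1.09. *NQO1* began closer, at 0.872, and stood at 1.56 in resistant cells. *NFE2L2* was the reverse, at 1.34 times the C3.2 level in parental cells and 1.12 times in resistant cells. The sample titles number the libraries of the 2 clones in separate runs, and what those numbers mark is not stated, so a difference in level between clones cannot be told apart from one between the runs.

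**Figure D3:**
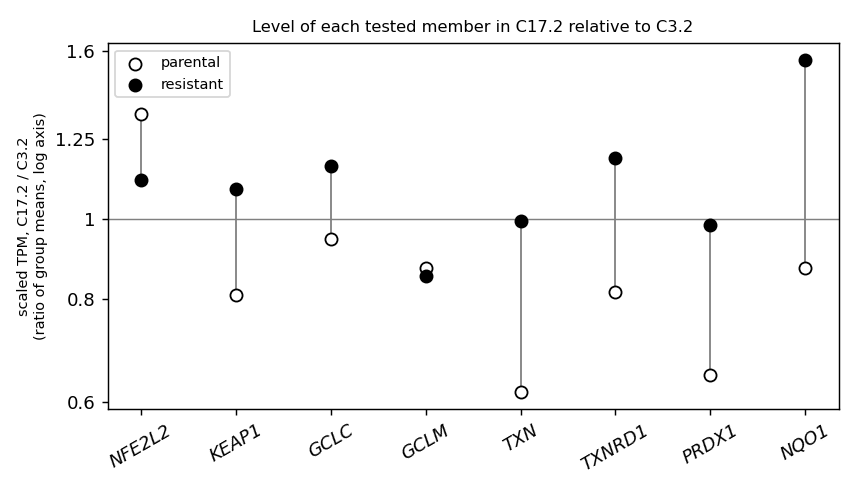
Ratio of scaled TPM in C17.2 to that in C3.2 (group means, n = 2 libraries each, logarithmic axis) for the 8 tested genes, in parental (open) and resistant (filled) cells. The ratios of *TXN* and *PRDX1* move from 0.618 and 0.647 to 0.995 and 0.985, and that of *NFE2L2* moves down from 1.34 to 1.12.

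In C17.2 the libraries with the higher *TXN*, *TXNRD1*, *PRDX1*, and *NQO1* also differed in other measures. Genes of the mitochondrial genome took 2.68% and 2.79% of the TPM in resistant libraries and 2.18% and 2.07% in parental ones. The summed stroma and epithelium markers, which were nearly all *COL1A1*, were 6.50 to 7.45 TPM in resistant and 2.7 to 2.97 TPM in parental libraries. The summed B-lineage markers were 639.9 to 644 TPM in resistant and 695 to 747 TPM in parental libraries. In C3.2 they were 553 to 589 TPM in resistant and 692 to 734 TPM in parental libraries. Among these markers *IGLL1* alone ranged from 20.1 to 166 TPM over the 8 libraries, so 1 marker may carry much of such a gap. In C3.2 the stroma and epithelium sum, again nearly all *COL1A1*, was also higher in resistant libraries (3.35 to 3.78 against 2.24 to 3 TPM). The sum of the 5 myeloid markers was higher there too (3.5 to 3.95 against 2.26 to 2.83 TPM). That of the T and NK cell markers was lower (51.4 to 52.5 against 54.3 to 56.7 TPM). Of the 5 myeloid markers only *LYZ* and *CSF1R* reached 1 TPM in any library, and neither did in all 8. The part of these measures in the changes was not tested. In bulk RNA, fewer cells with a transcript and less of it per cell cannot be told apart.

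Over the 8 libraries, with the mean of each clone subtracted, the protein-coding genes whose level followed *NFE2L2* most closely were *MIF4GD* (Pearson's r 0.998), *ACSS1* (0.997), and *HIST1H3D* (0.995), among 10776 genes compared. These libraries share 2 clones and 2 states, and the values are a description.

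The wider pathway was read from 6 lists of 69 genes that exclude the 10 above, of which 59 were tested. In C17.2, 16 of the 59 rose and 16 fell (54.2% past the threshold, against 27.3% of all genes). In C3.2, 4 rose and 9 fell (22.0%, against 11.4% of all genes). The median log2 fold change was -0.03 in C17.2 and -0.01 in C3.2, beside 0 for all genes, with 28 of the 59 above 0 in each clone. The changes of 15 of the 59 genes differed between clones (25.4%, against 9.90% of all genes). The lists were chosen with earlier results of these data known, so these shares are a description and no measure of an excess. Among the 12301 genes with at least 1 TPM in all 8 libraries, 4185 passed in C17.2 and 1910 in C3.2. Of the 55 listed genes tested there, 33 and 13 passed.

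**Figure D4:**
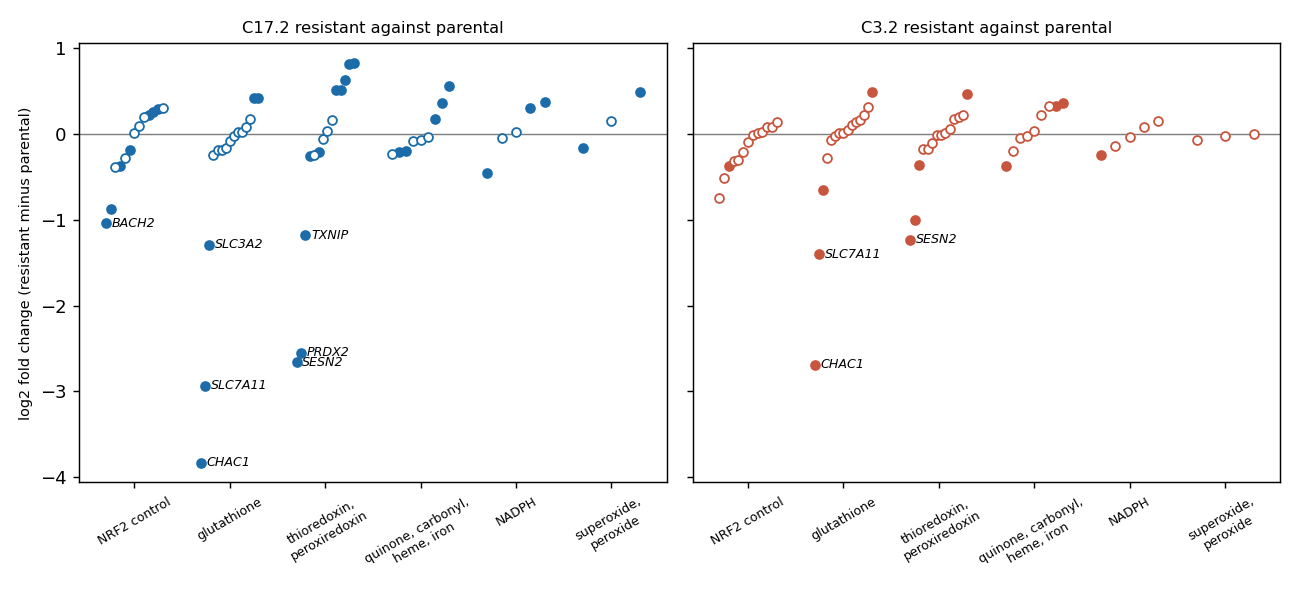
Log2 fold change in resistant against parental cells for the 59 tested genes of the 6 pathway lists, C17.2 on the left and C3.2 on the right. Each point is 1 gene, ordered by its value within a list; filled points have an adjusted p under 0.05 (limma) and genes past the threshold with a change beyond 1 are named. The points below -1 are led by *CHAC1* in both clones (-3.83 and -2.69).

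Of the 13 genes that control NRF2 or share its binding sites, 3 rose and 4 fell in C17.2, and 1 fell in C3.2. These are 53.8% of the list in C17.2, against 27.3% of all genes, and 7.69% in C3.2, below the 11.4% of all genes. *NFE2L1*, a related transcription factor that restores proteasome genes, fell in C17.2 from 44.1 and 42.7 TPM to 26.6 and 25.3 TPM (log2 fold change -0.88, adjusted p = 0.00036, limma). In C3.2 it had 16.2 and 18.3 TPM in parental and 19.0 and 19.1 TPM in resistant cells, and the clones differed by -0.95 (adjusted p = 0.0031). *BACH2*, a repressor of B cells that competes for the same elements, fell in C17.2 from 3.54 and 2.24 TPM to 0.73 and 1.20 TPM (-1.04, adjusted p = 0.0084) and missed the threshold in C3.2 (-0.75, adjusted p = 0.052). The fall in C17.2 passed in 13 of 15 alternatives, with adjusted p = 0.0512 without parental replicate 1 and 0.0528 without resistant replicate 1. *SYVN1*, an E3 ligase of the endoplasmic reticulum that can degrade NRF2, fell by 0.37 in C17.2 and by 0.38 in C3.2 (adjusted p = 0.011 and 0.023), with 13 and 9 of 16 alternatives past the threshold, and it overlaps the abundant *FAU* (245 to 271 TPM) on the same strand. *SQSTM1*, whose product p62 draws KEAP1 into autophagy, rose by 0.29 in C17.2 (adjusted p = 0.014, limma). The others that rose there were *RBX1* (0.26, adjusted p = 0.0088) and *GSK3B* (0.22, adjusted p = 0.039). In C3.2 *SQSTM1*, *RBX1*, and *GSK3B* showed 0.01, 0.03, and -0.21 (adjusted p = 0.935, 0.750, and 0.084). *MAFG* also fell in C17.2 (-0.19, adjusted p = 0.043, limma), although its deposited values overlapped. It missed the threshold in C3.2 (0.14, adjusted p = 0.155), and the clones differed by -0.33 (adjusted p = 0.045). *BACH1*, the repressor of *HMOX1*, showed 0.01 in C17.2 and -0.09 in C3.2 (adjusted p = 0.883 and 0.284).

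The 15 tested glutathione genes held the largest falls. *CHAC1*, which encodes an enzyme that degrades glutathione, fell in C17.2 from 29.7 and 28.9 TPM to 1.27 and 1.22 TPM and in C3.2 from 13.03 and 13.48 TPM to 1.09 and 1.63 TPM. *SLC7A11*, the cystine importer and a known NRF2 target, fell from 14.4 and 14.3 TPM to 1.03 and 1.18 TPM in C17.2 and from 3.44 and 3.67 TPM to 0.84 and 0.79 TPM in C3.2 (log2 fold changes -2.94 and -1.40, adjusted p = 8.9e-06 and 0.00041, limma). *SLC3A2*, its partner chain, fell by 1.29 and 0.65 on the log2 scale. All of these falls were larger in C17.2 (differences -1.14, -1.53, and -0.64, adjusted p = 0.013, 0.0011, and 0.0068), although the *CHAC1* difference passed in 10 of 15 alternatives. *CHAC1*, *SLC7A11*, and *SLC3A2* are also known targets of the stress factor ATF4. Glutathione synthetase *GSS* and the transferase gene *GSTP1* rose in C17.2 (0.42 each, adjusted p = 0.0032 and 0.0012, limma). In C3.2 they missed the threshold (0.01 and 0.14, adjusted p = 0.945 and 0.088), and the clones differed by 0.41 and 0.27 (adjusted p = 0.028 and 0.043). The peroxidase gene *GPX1* rose in C3.2 (0.49, adjusted p = 0.018) and missed the threshold in C17.2 (-0.19, adjusted p = 0.146), a difference of -0.68 (adjusted p = 0.020). In all, 2 rose and 3 fell in C17.2 (33.3%, near the 27.3% of all genes), and 1 rose and 3 fell in C3.2 (26.7%, against 11.4%).

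Of the 14 tested thioredoxin and peroxiredoxin genes beyond the 10, 5 rose and 5 fell in C17.2 (71.4%, against 27.3% of all genes), and 1 rose and 3 fell in C3.2 (28.6%, against 11.4%). *PRDX2*, the cytosolic relative of *PRDX1*, went the other way from it in C17.2, from 16.3 and 16.2 TPM to 2.17 and 2.15 TPM (log2 fold change -2.55, adjusted p = 1.2e-05, limma). In C3.2 it fell from 4.00 and 4.14 TPM to 1.6 and 1.71 TPM (-1, adjusted p = 0.0011). *TXNIP*, which binds and inhibits thioredoxin, fell from 58.5 and 58.4 TPM to 28.9 and 27.5 TPM in C17.2 (-1.18, adjusted p = 0.00016) and by 0.36 in C3.2 (adjusted p = 0.027). *SESN2*, a stress-induced sestrin, fell by 2.66 and 1.23 (adjusted p = 6.3e-06 and 0.00023), while *SESN1* rose by 0.82 and 0.47 (adjusted p = 0.0021 and 0.032). In C3.2 the calls of *TXNIP* and *SESN1* passed in 8 and 6 of 16 alternatives. *PRDX4* and *PRDX5*, peroxiredoxins of the endoplasmic reticulum and mitochondria, rose in C17.2 (0.63 and 0.82, adjusted p = 0.0075 and 0.010). In C3.2 they showed 0.22 and -0.01 (adjusted p = 0.251 and 0.978). *TXNRD2* and *TXNL1* fell in C17.2 (-0.26 and -0.21, adjusted p = 0.011 and 0.025). In C3.2 both missed the threshold (-0.02 and -0.17, adjusted p = 0.869 and 0.081).

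Among the 9 tested genes of quinone, carbonyl, heme, and iron handling, 3 rose and 2 fell in C17.2 (55.6%, against 27.3% of all genes), and 2 rose and 1 fell in C3.2 (33.3%, against 11.4%). *HMOX2*, the constitutive heme oxygenase, rose from 15.5 and 13.9 TPM to 25.3 and 24.1 TPM in C17.2 and from 14.6 and 15.7 TPM to 21.3 and 18.9 TPM in C3.2 (0.56 and 0.32, adjusted p = 0.0016 and 0.025, limma). *NQO2*, the relative of *NQO1*, rose by 0.36 in both clones (adjusted p = 0.018 and 0.035). The aldose reductase gene *AKR1B1* fell by 0.20 and 0.37 (adjusted p = 0.023 and 0.0076). These calls passed in 11 (*NQO2*) and 8 (*AKR1B1*) of 16 alternatives in C17.2, and in 6 (*NQO2*) and 8 (*HMOX2*) in C3.2. *AKR1C1* and *OSGIN1*, known NRF2 targets, stayed below 0.30 TPM and were not tested.

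Of the 5 tested genes of the NADPH list, 2 rose and 1 fell in C17.2 (60%, against 27.3% of all genes). In C3.2, 1 fell (20%, against 11.4%). *PGD* and *IDH1* missed the threshold in C17.2 (0.03 and -0.05, adjusted p = 0.754 and 0.603, limma). They also missed it in C3.2 (-0.14 and -0.04, adjusted p = 0.165 and 0.731). *TALDO1*, of the pentose phosphate pathway, rose in C17.2 (0.38, adjusted p = 0.0018) and missed the threshold in C3.2 (0.08, adjusted p = 0.303). *TKT*, of the same pathway, fell by 0.46 in C17.2 and by 0.25 in C3.2 (adjusted p = 0.00078 and 0.018), the latter past the threshold in 10 of 16 alternatives. The known NRF2 target *ME1* was at most at 0.01 TPM. Of the superoxide and peroxide genes, *SOD1*, the cytosolic superoxide dismutase, rose in C17.2 from 85.9 and 82.5 TPM to 126 and 140.0 TPM (0.49, adjusted p = 0.0022). Catalase (*CAT*) fell there by 0.16 after scaling (adjusted p = 0.025). Its deposited values overlapped, with 34.4 and 32.1 TPM in parental and 32.8 and 33.5 TPM in resistant cells. The change of *CAT* in C3.2 was 0.004 (adjusted p = 0.970). In C3.2 *SOD1* had 104 and 109.7 TPM in parental and 114 and 98.8 TPM in resistant cells, and the clones differed by 0.56 (adjusted p = 0.014, past the threshold in 11 of 15 alternatives).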

How the data were processed

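RNA-seq of 8 libraries of CTCF-AID2 SEM cells was used. Per the labels and the study's methods, ribosomal RNA was removed from total RNA. Reads were trimmed (TrimGalore 0.6.3) and aligned (STAR 2.7.9a) to GRCh38.p13, and the authors deposited TPM for each gene from RSEM 1.3.1 with the Gencode release 31 annotation. The labels describe single-end and the methods paired-end reads. TPM keeps no depth, so no counting error can be given.

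A gene was tested if any library reached 1 TPM. A library's factor was its mean log2 ratio to the average library, leaving out 30% of ratios and 5% of means at either end. Values of log2(scaled TPM + 1) were fitted in limma 3.58.1 (R 4.3.3; lmFit, contrasts.fit, then eBayes with an intensity trend), 1 model holding the 4 groups, two-sided, and p was adjusted by Benjamini-Hochberg over all 15614 genes. The voom step of the study takes counts and could not be applied to TPM. Resistant cells were compared with parental cells of the same clone, and these changes were compared between clones. The 2 states differ at once in time in culture, in both drugs, and in the mutation of *CTCF* or the tag. What each of these adds to a change cannot be told apart. With 2 libraries against 2, an exact permutation p cannot fall below 0.333, so groups that do not overlap are a description. The fit was tested on simulated data. The closing section gives the alternatives tried.

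The 10 genes and the pathway and marker lists were chosen with earlier results of these data known. Named pathway genes were, per list and clone, up to 3 with the largest change that passed the threshold, averaged at least 1 TPM, and had no overlap of TPM between states. *SQSTM1*, *RBX1*, *GSK3B*, *MAFG*, *BACH1*, *GSS*, *GSTP1*, *GPX1*, *PRDX4*, *PRDX5*, *TXNRD2*, *TXNL1*, *AKR1C1*, *OSGIN1*, *PGD*, *IDH1*, *ME1*, and *CAT* were named after their values were seen. *PGLS* and *SOD2* (2 rows share the symbol) were not used here. 1 gene that the naming rule picked is not reported here. Positions are those of Gencode release 44 (GRCh38), and starts are from RefSeq. Tables and plots were made in Python 3.11.15 (pandas 2.3.3, matplotlib 3.10.9).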

Additional observations from a re-analysis of the deposited data

Results flagged for a closer look

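The changes of 5 of the 8 tested genes differed between the clones, against 9.9% of all genes. The genes were chosen with earlier results of these data known, so this count is a description. The test was that of the difference itself in limma, the change in C17.2 minus that in C3.2 on the log2 scale. The difference was 0.74 for *NQO1*, 0.68 for *TXN*, 0.61 for *PRDX1*, 0.53 for *TXNRD1*, and 0.41 for *KEAP1*. For *NQO1* both clones rose and C17.2 rose more, and for *TXN* the C3.2 change was 0.02. For *PRDX1*, *TXNRD1*, and *KEAP1* the changes had opposite signs. Their changes in C3.2 missed the threshold in the main fit (adjusted p = 0.0545, 0.061, and 0.061, limma). That of *KEAP1* in C17.2 missed it too (adjusted p = 0.0855). Among alternatives, *TXN* passed in 15 of 15, *PRDX1* and *TXNRD1* in 13 of 15 each, *NQO1* in 7 of 15, and *KEAP1* in 5 of 15.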

How the results depend on the processing

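The rises of *NQO1*, *TXN*, *TXNRD1*, and *PRDX1* in C17.2 passed the threshold in all 16 alternatives. The number of the 8 genes past it in C17.2 was 4 to 7 (4 to 5 with a library left out). In C3.2 it was 0 with that clone fitted alone or with no filter, 4 with at least 1 TPM in all 8 libraries (*KEAP1*, *TXNRD1*, and *PRDX1* then lower), and 0 to 2 with a library left out. For the difference between clones it was 3 with no filter and 1 to 5 with a library left out. The 1 was *TXN*, without parental replicate 1 of C17.2. Pathway genes past it were 16 to 32 in C17.2 and 5 to 12 in C3.2 with a library left out, and in C3.2 5 with the clone alone and 20 with TPM rescaled over protein-coding genes. The fall of *NFE2L2* in C17.2 was lost on TPM as deposited (-0.09, adjusted p = 0.295), over protein-coding genes (-0.16, 0.0877), and with no filter (0.0549), and held in 9 of 16 alternatives. The rise of *NQO1* in C3.2 held in 7 of 16, with adjusted p up to 0.116. On TPM as deposited, where the median of all genes in C17.2 was 0.13, *KEAP1*, *GCLC*, and *GCLM* passed as higher in C17.2, and 75.1% of all calls there were higher, against 49.1% in the scaled values and 64.5% over protein-coding genes. In C3.2 that share was 39.3%, against 57.8% as deposited, 70.1% over protein-coding genes, 50.8% with quantile normalization, and 28.5% with the clone alone, and for the difference 49.6% against 64.0% as deposited. All genes past the threshold in C3.2 numbered 1773, against 386 with the clone alone and 1167 with no filter. With a library left out, the genes past the threshold, and so the shares over all genes, ranged from 2398 to 4575 in C17.2 (4261 with all libraries, and 2398, 2555, and 2650 without its parental replicates 1 and 2 and its resistant replicate 2), from 343 to 1820 in C3.2 (343, 422, and 856 without its parental replicates 1 and 2 and its resistant replicate 2, and 1017 and 997 without parental replicates 1 and 2 of C17.2), and from 561 to 1788 for the difference (1546 with all libraries, and 561 to 873 without any 1 library other than the resistant ones of C3.2). Signs turned, none past the threshold, for the *GCLM* difference (0.049 as deposited, -0.159 to 0.092 with a library left out), *NFE2L2* in C3.2 (-0.059 to 0.0744 with a library left out), and *SOD1* in C3.2 (0.0342 with quantile normalization and 0.034 over protein-coding genes, -0.139 to 0.00034 with a library left out). The cause of these shifts was not tested. No paired analysis was possible because the labels give no replicate numbers. Replicates 1 and 2 are named here by the order of the samples within each group.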
